A study of Mus musculus with 16 samples.

Results

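The genes described here are the extracellular proteases, protease inhibitors and crosslinking enzymes that shape the matrix around muscle fibres. They were taken by symbol from the table of mouse muscle, as every row named Mmp, Timp1 to Timp4, Adamts, Lox or Loxl1 to Loxl4, which gave 48 of 26382 genes. The 48 comprised 20 matrix metalloproteinases (MMPs), 4 tissue inhibitors of metalloproteinases (TIMPs), 19 ADAMTS proteases and 5 lysyl oxidases. Of these, 42 had a mean of at least 0.5 normalized counts over the 16 libraries and were tested, together with 16414 genes in all.

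Hamstring muscle was taken from 9 female C57BL/6 mice, 8 to 10 weeks old, 14 days after injection, and poly(A) RNA was sequenced as bulk tissue. In 5 mice (m862 to m866) the titles place HRS, recombinant histidyl-tRNA synthetase used as immunogen at 3 to 5 mg/mL, in the left leg and PBS in the right leg. These gave 5 HRS legs and 5 contralateral PBS legs. Both hamstrings of m867 and m868 were given PBS, which yielded 4 PBS-only legs from 2 animals. From m860 and from m861 there is 1 library, its side not stated, taken after an MBP fusion of the protein at 2 to 3 mg/mL according to their titles (HRS-MBP), although their treatment label reads HRS. The general protocol in the labels describes 100 uL of HRS given into both hamstrings, 50 uL to each, which differs from the titles that separate the legs, and the titles were followed.

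MMPs are secreted or membrane-bound zinc proteases that cleave collagens, gelatin, elastin and proteoglycans, and most are made as inactive precursors that other proteases activate. TIMPs bind and block the active site of MMPs and of some ADAMTS proteases, while ADAMTS proteases cleave proteoglycans, trim procollagens or act on other matrix and plasma proteins. Lysyl oxidases oxidise lysines of collagen and elastin, the step that lets the fibres crosslink. In injured muscle, such enzymes are made by fibroblasts, macrophages and neutrophils as well as by muscle cells, and RNA level does not measure enzyme activity.

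The implied depth, in units of 1e6 reads, was 37.3 to 73.9 in HRS legs, 24.7 to 72.8 in contralateral PBS legs, 8.60 to 40.7 in PBS-only legs and 37.3 to 39.6 in HRS-MBP libraries. A level of 3 reads, used as the floor for detection, corresponded to 0.0324 to 0.364 normalized counts, and this covers counting error only. The HRS leg of mouse m866 stood apart from the other 4 HRS legs for most of the genes described here. It was the lowest of the HRS legs for 36 of the 42 tested members, against 40.8% of all tested genes. The PBS leg of the same mouse was the highest contralateral PBS leg for 23 of the 42 members, against 28.3% of all tested genes. Differences between HRS and contralateral PBS legs are therefore also given without mouse m866 where this moved the fold by more than 1.5 times or changed a call. For the other comparisons with HRS legs, only changed calls are given without m866. Where the HRS-MBP group is described, values of some members are given for its 2 libraries separately.

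Of the MMP genes, 7 lie on the same strand within 427 kb of chromosome 9 (GRCm38), in the order Mmp13, Mmp12, Mmp3, Mmp10, Mmp8, Mmp27 and Mmp7. Mmp13 lies at chr9:7272514-7283331, Mmp12 at chr9:7344381-7369499, Mmp3 at chr9:7445822-7455975, Mmp8 at chr9:7558456-7568485 and Mmp27 at chr9:7571396-7581885. The 5 tested genes of the cluster were all called higher in HRS legs, where 16.9% of all tested genes were. Of these 5, Mmp8, Mmp13 and Mmp27 passed the filter on low values only through HRS or HRS-MBP libraries, so that their calls follow in part from that filter. The promoter windows of the 5 genes are shown because they are neighbours of 1 family. For Mmp12, the window printed is that of its second RefSeq start, 2993 bases from the start of the table's gene. The window of its nearer start, which holds no match, is not printed. Each window holds 250 bases before and 50 bases after a transcription start of RefSeq on GRCm38.p6, plus strand, and the capitals mark matches on either strand to TGANTCA for AP-1, to GAAANNGAA for the ISRE core or to TATAAA for the TATA box.
Mmp13, chr9:7272264-7272563: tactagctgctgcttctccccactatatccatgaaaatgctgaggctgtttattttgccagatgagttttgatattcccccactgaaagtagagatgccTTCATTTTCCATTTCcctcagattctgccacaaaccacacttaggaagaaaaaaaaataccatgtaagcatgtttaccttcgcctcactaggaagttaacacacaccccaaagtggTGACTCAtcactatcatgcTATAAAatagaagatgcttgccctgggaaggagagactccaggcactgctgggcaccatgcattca
Mmp12, second RefSeq start, chr9:7347124-7347423: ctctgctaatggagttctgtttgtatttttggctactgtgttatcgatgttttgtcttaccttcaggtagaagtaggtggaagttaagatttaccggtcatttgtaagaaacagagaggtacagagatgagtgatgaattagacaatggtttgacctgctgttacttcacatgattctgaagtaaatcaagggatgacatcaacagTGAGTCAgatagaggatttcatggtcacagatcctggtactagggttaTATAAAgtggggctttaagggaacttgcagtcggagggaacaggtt
Mmp3, chr9:7445572-7445871: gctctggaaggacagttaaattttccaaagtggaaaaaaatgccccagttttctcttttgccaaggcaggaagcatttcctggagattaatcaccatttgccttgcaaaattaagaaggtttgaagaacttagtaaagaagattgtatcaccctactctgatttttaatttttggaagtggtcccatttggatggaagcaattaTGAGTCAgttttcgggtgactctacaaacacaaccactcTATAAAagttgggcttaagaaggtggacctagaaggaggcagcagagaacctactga
Mmp8, chr9:7558179-7558478: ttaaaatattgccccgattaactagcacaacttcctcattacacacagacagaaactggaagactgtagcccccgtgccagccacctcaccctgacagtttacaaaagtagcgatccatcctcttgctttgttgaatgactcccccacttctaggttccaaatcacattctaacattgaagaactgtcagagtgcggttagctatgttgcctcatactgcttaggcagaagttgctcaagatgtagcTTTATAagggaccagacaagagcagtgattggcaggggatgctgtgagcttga
Mmp27, chr9:7571146-7571445: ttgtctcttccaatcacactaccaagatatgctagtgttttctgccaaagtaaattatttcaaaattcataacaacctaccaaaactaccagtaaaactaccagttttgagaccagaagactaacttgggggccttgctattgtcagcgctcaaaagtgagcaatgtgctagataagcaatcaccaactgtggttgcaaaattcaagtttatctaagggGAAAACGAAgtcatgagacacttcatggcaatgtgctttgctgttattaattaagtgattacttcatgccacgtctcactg

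Mmp13, Mmp3 and the second start of Mmp12 each had 1 AP-1 match, beginning at positions -35, -46 and -44 from the annotated start. The RefSeq start of Mmp12 nearest to the start of the table's gene, 16 bases away, had none of the motifs. Mmp8 had 1 TATA match and none of the other motifs. Mmp13 had 2 overlapping matches to the ISRE core and Mmp27 had 1. RefSeq held 33 windows for 30 of the members, with more than 1 start for some. AP-1 was found in 5 of the 33 windows (1 each of Mmp3, Mmp7, Mmp10, Mmp12 and Mmp13), the ISRE core in 2, TATA in 8 and GAS (TTCNNNGAA) in 2, both of Mmp23. The shares among the 32851 windows of all genes, every start counted, were 7.81% for AP-1, 8.56% for the ISRE core, 13.6% for TATA and 8.30% for GAS. A match describes the letters in the window and was not tested for binding.

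In the comparison of HRS legs with contralateral PBS legs, 27 of the 42 tested members were called higher and 2 were called lower. Called means an adjusted p under 0.05 from limma with a log2 fold change beyond 1 in either direction. Among all tested genes, 16.9% were called higher and 6.27% lower. The median log2 fold change of the tested members was 1.56, against 0.077 for all tested genes. Of the 42, 7 had passed the filter on low values only through the HRS or HRS-MBP libraries (Mmp8, Mmp13, Mmp16, Mmp25, Mmp27, Adamts17 and Adamts19), and their calls follow in part from that filter. Among the other 35, 20 were called higher and 2 lower. Without mouse m866, 30 members were called higher and 2 lower, where 21.2% and 10.6% of all genes were, and the median of the members was 1.96. The members whose HRS legs all lay above all contralateral PBS legs numbered 9 of 42, against 18.3% of all tested genes, and 1 (Mmp15) lay wholly under them, against 3.19%. Of the 9, Mmp8, Mmp25 and Mmp27 passed the filter only through HRS or HRS-MBP libraries, and their separation follows in part from it.

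**Figure D1:**
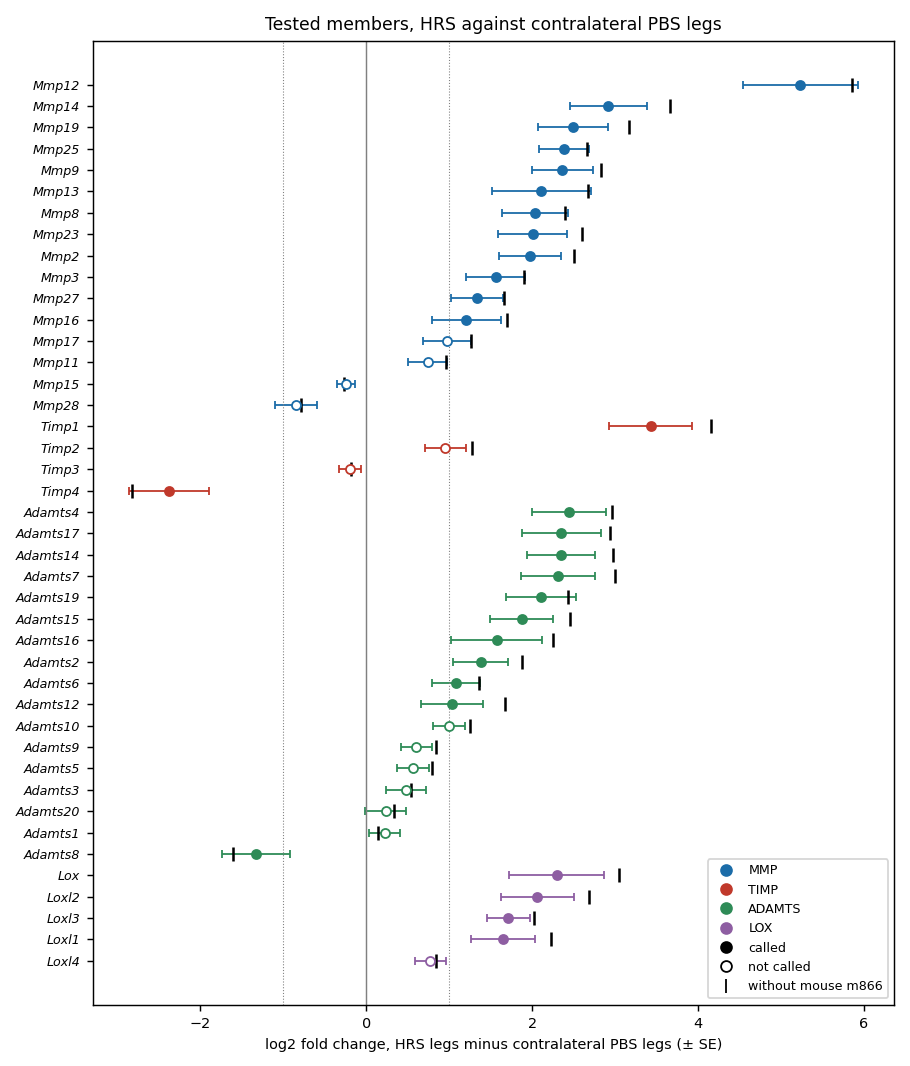
Log2 fold change of each tested member between 5 HRS legs and 5 contralateral PBS legs, on the log2(normalized count + 0.5) scale, with its standard error from limma, grouped by family and with called members filled. Black ticks give the same difference without mouse m866, which lies farther from 0 for 39 of the 42 members.

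Of the 16 tested MMPs, 12 were called higher and none lower, and 5 of the 12 were among those that passed the filter only through HRS or HRS-MBP libraries. The largest rise was that of Mmp12, macrophage elastase, which degrades elastin. Mmp12 stood at 54.3, 136, 93.8, 104 and 8.88 normalized counts in the HRS legs of m862, m863, m864, m865 and m866, and at 0.897, 0.379, 3.28, 0.912 and 0.916 in their PBS legs. In the PBS-only legs it lay between 0.847 and 3.88. Every HRS leg was above all 9 PBS legs, and that of m866 was far under the other 4. The log2 fold change was 5.23 ± 0.69 (SE, adjusted p = 3.48e-05, limma), and 5.86 ± 0.58 without mouse m866. Its exons overlap Mmp1b on the opposite strand by 157 bases, and whether the counting used strand is not stated.

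The gelatinases Mmp2 and Mmp9, which cleave denatured collagen and basement membrane collagen, both rose. Mmp9 was at 34.2, 55.4, 57.1, 26.8 and 20.9 in HRS legs and at 2.56, 6.79, 8.45, 5.41 and 14.7 in contralateral PBS legs, with 3.28 to 7.16 in PBS-only legs. The HRS legs did not overlap any PBS leg, and the highest PBS value was that of m866. The difference was 2.36 ± 0.37 on the log2 scale (adjusted p = 0.000136, limma). Mmp2 was by far the more abundant, with a median of 136 normalized counts per kb of exon in HRS legs against 9.67 for Mmp9. It lay between 341 and 511 in 4 HRS legs and at 101 in the HRS leg of m866, within the range of the PBS legs, 50.9 to 118 (log2 fold change 1.98 ± 0.38, adjusted p = 0.000664, limma).

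The collagenases Mmp8 and Mmp13 cleave intact fibrillar collagen, and both were near the floor in PBS legs. Mmp8, the neutrophil collagenase, was at 0.955, 3.48, 4.11, 2.26 and 0.249 in HRS legs and at 0, 0.0165, 0.139, 0.0882 and 0 in the contralateral PBS legs, so that no value overlapped (2.03 ± 0.40, adjusted p = 0.000824, limma). With a pseudocount of 2 in place of 0.5, Mmp8 was no longer called. Mmp13 was between 0.985 and 8.41 in 4 HRS legs and at 0.0623 in that of m866, against 0.032 to 0.139 in contralateral PBS legs (2.11 ± 0.60, adjusted p = 0.00705, limma). On this scale, which adds 0.5 to each value, the changes of such low genes are understated.

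Mmp3 (stromelysin-1), which cleaves proteoglycans and activates other MMPs, stood at 15.5, 28.3, 31.6, 25.1 and 7.91 in HRS legs and at 3.62, 8.72, 5.63, 7.76 and 6.97 in contralateral PBS legs. Mouse m866 was again lowest, under the PBS leg of m863, so that the groups overlapped by that leg. The difference was 1.56 ± 0.36 (adjusted p = 0.0021, limma). Mmp11 was not called, at 0.74 ± 0.23 (adjusted p = 0.0125).

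Among the membrane-type MMPs, Mmp14 (MT1-MMP), a collagenase at the cell surface that also activates the Mmp2 precursor, had the largest rise, 2.92 ± 0.47 (adjusted p = 0.000171, limma), and 3.66 ± 0.21 without mouse m866. It lay between 227 and 385 in 4 HRS legs, at 43.8 in that of m866 and between 16.7 and 45.5 in the 9 PBS legs. Mmp25 (MT6-MMP), a leukocyte protease, was at 2.40, 1.87, 7.47, 2.88 and 1.62 in HRS legs and at 0.0641, 0.165, 0, 0.118 and 0.377 in contralateral PBS legs, without overlap (2.38 ± 0.30, adjusted p = 2e-05, limma). Mmp16 was called at 1.21 ± 0.42 (adjusted p = 0.0214, limma), but not with mouse as a block in the fit (adjusted p = 0.0645). It was not called without m862 (adjusted p = 0.0876), m863 (0.0967) or m865 (0.111) either. Mmp17 was not called at 0.97 ± 0.29 (adjusted p = 0.00956, limma) but passed the fold threshold without m863 (1.11), m865 (1.01) or m866 (1.26). Nor was Mmp15 called, at -0.24 ± 0.11 (adjusted p = 0.0713), although every HRS leg, 32.1 to 46.3, was under every contralateral PBS leg, 47.7 to 55.7.

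Of the remaining MMPs, Mmp19 (2.49 ± 0.42, adjusted p = 0.000282), Mmp23 (2.005 ± 0.41, adjusted p = 0.00115) and Mmp27 (1.33 ± 0.32, adjusted p = 0.00265) were called higher by limma. Mmp27 was at 1.32, 2.33, 0.804, 3.06 and 0.530 in HRS legs and at 0.320, 0.445, 0, 0.118 and 0.512 in contralateral PBS legs and the lowest HRS value, in m866, was only just above that mouse's PBS leg. Without mouse m866, Mmp19 was at 3.16 ± 0.28 and Mmp23 at 2.60 ± 0.21. Mmp27 was not called with a pseudocount of 2 or with quantile normalization. Mmp28, epilysin, had a lower mean in HRS legs (-0.85 ± 0.26, adjusted p = 0.0107) in all 5 mice but did not reach the fold threshold.

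**Figure D2:**
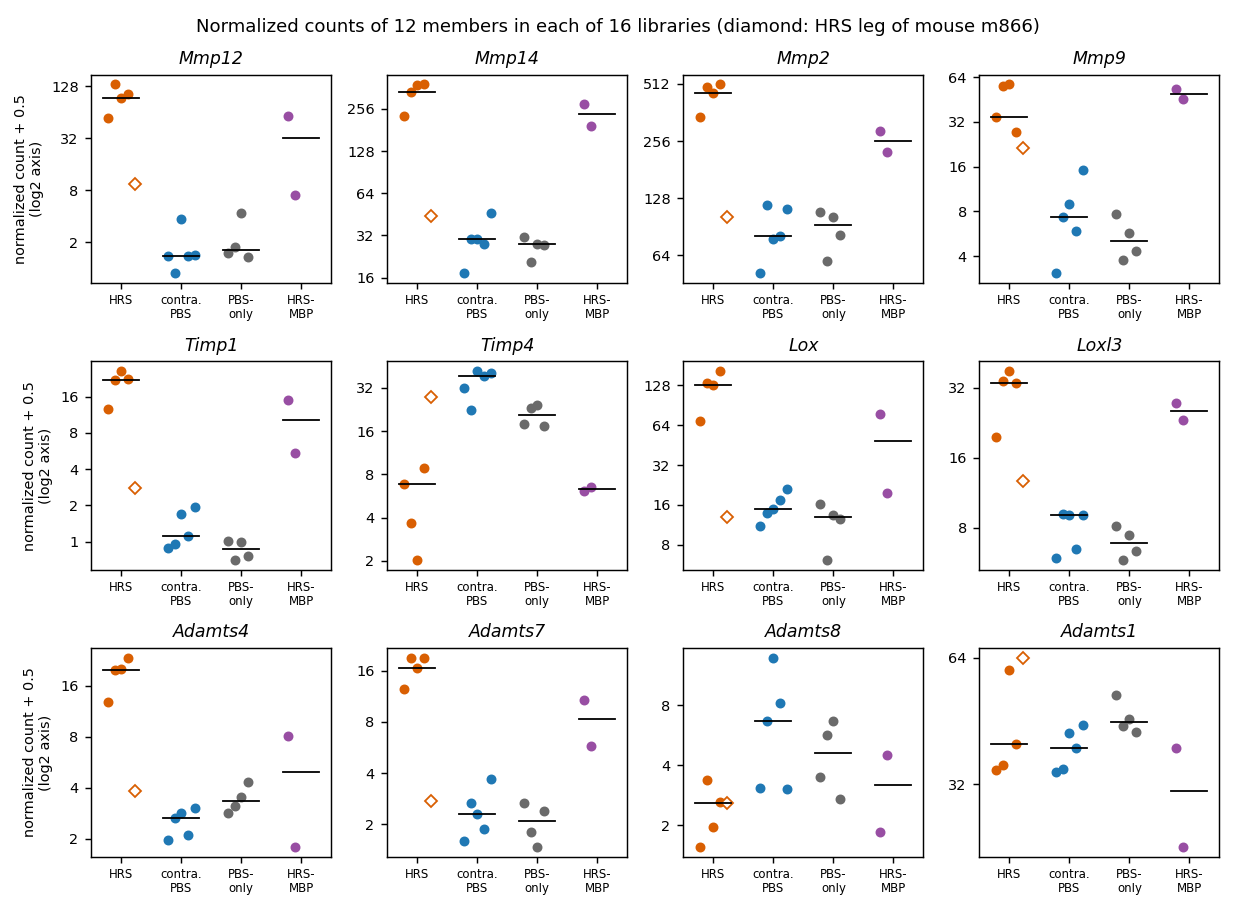
Normalized count plus 0.5, on a log2 axis, of 12 members in each of 16 libraries, grouped as 5 HRS legs, 5 contralateral PBS legs, 4 PBS-only legs and 2 HRS-MBP libraries, with the median of each group as a line. The open diamond, the HRS leg of mouse m866, lies among the PBS legs for Mmp14, Mmp2, Lox and Adamts7 and above them for Mmp12, Mmp9, Timp1 and Loxl3.

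The 4 inhibitors moved in different directions. Timp1, the inducible inhibitor of most MMPs, had the second largest rise of all members and Timp4, the inhibitor typical of heart and muscle, the largest fall, while Timp2 and Timp3 did not pass the thresholds. Timp1 was at 12.1, 21.3, 25.6, 22.0 and 2.31 normalized counts in HRS legs, at 0.385, 0.461, 1.20, 0.618 and 1.43 in contralateral PBS legs and at 0.512, 0.202, 0.485 and 0.261 in PBS-only legs. All HRS legs were above all PBS legs (3.43 ± 0.50, adjusted p = 7.75e-05, limma, and 4.15 ± 0.31 without mouse m866). The gene (chrX:20870166-20874735, GRCm38) lies within an intron of Syn1, which is on the opposite strand, and shares no exonic bases with it.

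Timp4 (chr6:115241892-115252205, minus strand) was at 6.39, 3.17, 1.52, 8.37 and 27.0 in HRS legs and at 31.2, 22.0, 41.5, 38.0 and 40.3 in contralateral PBS legs. The first 4 HRS legs were under every PBS leg, and that of m866 was within the PBS range. The difference was -2.38 ± 0.48 (adjusted p = 0.001, limma), and -2.83 ± 0.35 without m866. The PBS-only legs were at 17.5, 22.6, 23.8 and 16.8, and the contralateral PBS legs differed from them by 0.74 ± 0.51 on the log2 scale (adjusted p = 0.987, limma). Against PBS-only legs the fall was -1.63 ± 0.51 (adjusted p = 0.0126). It was not called without m867 (adjusted p = 0.0677) or m868 (0.0644), nor when both legs of m867 and of m868 were averaged (0.0635).

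Timp2, which also takes part in activating the Mmp2 precursor, was the most abundant inhibitor per kb in every group, with a median of 46.3 per kb in contralateral PBS and 94.97 in HRS legs. It was at 319, 476, 370, 478 and 167 in HRS legs and at 126, 190, 180, 178 and 214 in contralateral PBS legs. In 4 mice the HRS leg was above every PBS leg, and in m866 it was under its own PBS leg (0.95 ± 0.25, adjusted p = 0.00426, limma, under the fold threshold). Without m866 the difference was 1.28 ± 0.18 and Timp2 was called. Timp3 was at 116, 123, 145, 101 and 140 in HRS legs and at 120, 164, 139, 126 and 166 in contralateral PBS legs, which overlapped (-0.19 ± 0.14, adjusted p = 0.224), and shares 1733 exonic bases with Syn3 on the other strand. The PBS-only legs were at 120.1 to 199 for Timp2 and 130.5 to 178 for Timp3. In m860 and m861, Timp2 was at 369.9 and 367, above every PBS leg, Timp3 at 145 and 130.1, within the PBS range, and Timp4 at 5.66 and 6.03, under every PBS leg. Per kb of exon, Timp1 thus went from a median of 0.695 in contralateral PBS legs to 24.0 in HRS legs, while Timp4 went from 6.45 to 1.08, so that the order of the medians was the opposite in HRS legs. In the HRS leg of m866 alone, Timp1 (2.60 per kb) stayed under Timp4 (4.57), as in PBS legs.

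**Figure D3:**
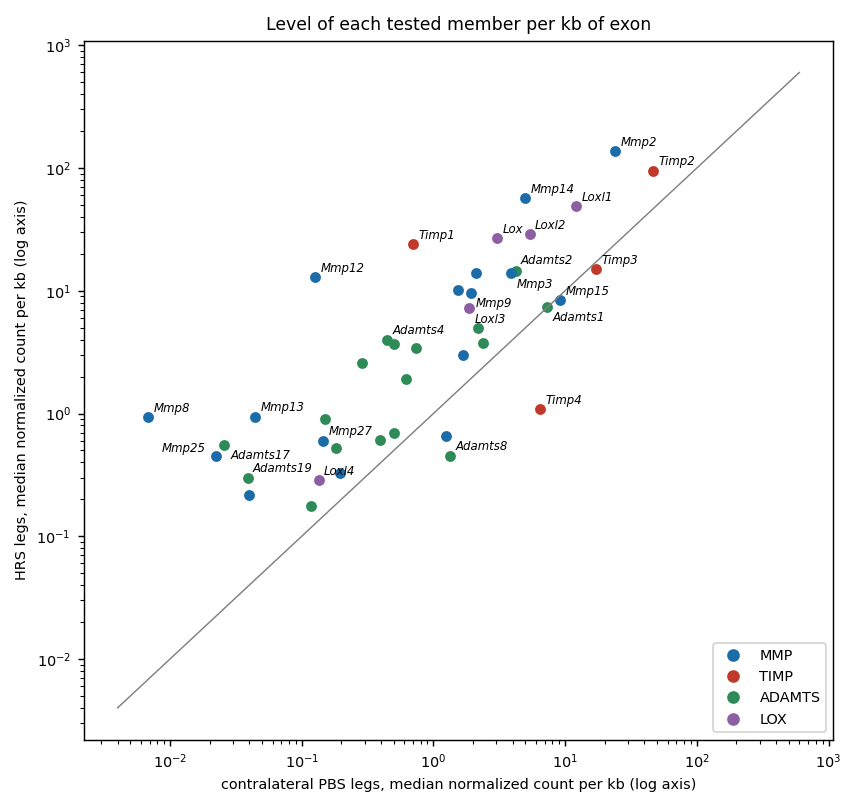
Median normalized count per kb of exon of each tested member in contralateral PBS legs (horizontal) and HRS legs (vertical), both on log axes, coloured by family, with the line of equal levels. Mmp2, Timp2, Mmp14 and Loxl1 are the highest in HRS legs, and Timp4 and Adamts8 lie farthest under the line.

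Of the 17 tested ADAMTS genes, 10 were called higher and 1 lower. The 7 proteoglycanases, which cleave aggrecan or versican, were split, with 2 called higher (Adamts4 and Adamts15), 1 lower (Adamts8) and 4 not called. Adamts4 was at 12.3, 19.2, 19.5, 22.8 and 3.33 in HRS legs and at 1.47, 2.14, 2.34, 1.62 and 2.56 in contralateral PBS legs. The HRS legs were all above those, but m866 was under the highest PBS-only leg, 3.85 (2.44 ± 0.45, adjusted p = 0.000492, limma). Adamts15 rose by 1.87 ± 0.38 (adjusted p = 0.00107). Adamts8 was at 1.06, 2.87, 1.47, 2.10 and 2.09 in HRS legs and at 2.59, 6.17, 13.3, 7.66 and 2.53 in contralateral PBS legs, lower in the HRS leg of all 5 mice with 1 HRS leg in the PBS range (-1.33 ± 0.41, adjusted p = 0.0113, limma). The call of Adamts8 was lost with equal library totals, with limma-voom, with a pseudocount of 2 and without mouse m864 (-0.96, adjusted p = 0.0652). Adamts1 (0.22 ± 0.18), Adamts5 (0.56 ± 0.19), Adamts9 (0.60 ± 0.19) and Adamts20 (0.23 ± 0.24) were not called, and Adamts1, the most abundant of the proteoglycanases per kb in PBS legs, had its highest value, 63.5, in the HRS leg of m866.

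The procollagen N-peptidases, which remove the amino-terminal propeptide before collagen assembles into fibrils, were called higher for Adamts2 (1.38 ± 0.33, adjusted p = 0.00279) and Adamts14 (2.35 ± 0.41, adjusted p = 0.000376) but not for Adamts3 (0.48 ± 0.24, adjusted p = 0.0931) by limma. Without mouse m866, Adamts14 was at 2.97 ± 0.26. Adamts2 was the highest of the 3 per kb, with a median of 14.5 in HRS legs.

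Among the other 7 ADAMTS genes tested, 6 were called higher, with Adamts17 and Adamts19 reaching the filter only through HRS or HRS-MBP libraries. Adamts17 was at 3.81, 6.19, 4.30, 5.14 and 0.218 in HRS legs and at 0.192, 0.198, 0.231, 0.147 and 0.215 in contralateral PBS legs, so that m866 was within the PBS range (2.35 ± 0.48, adjusted p = 0.00102, limma). Adamts19 was at 3.88, 4.199, 5.25, 4.65 and 0.530 in HRS legs and at 0.545, 0.626, 0.554, 0.0882 and 0.0808 in contralateral PBS legs, where m866 was above its own PBS leg but within the PBS range (2.11 ± 0.42, adjusted p = 0.000874, limma). Adamts7 rose by 2.31 ± 0.44 (adjusted p = 0.000704) and Adamts6 by 1.08 ± 0.29 (adjusted p = 0.00545). Without m865, Adamts6 fell under the fold threshold (0.90). Adamts10 was just under the fold threshold at 0.9996 ± 0.19 (adjusted p = 0.000755) and was called without m866 (1.247). Without mouse m866, the log2 fold change was 3.00045 for Adamts7, 2.93 for Adamts17, 1.67 for Adamts12 (1.04 with it) and 2.25 for Adamts16 (1.57 with it). With mouse as a block, Adamts12 (adjusted p = 0.136, from 0.025 without the block) and Adamts16 (0.0609, from 0.0218) were not called. Adamts12 was not called without m862, m863, m864 or m865 either, with adjusted p of 0.0981, 0.0689, 0.0987 and 0.151, and Adamts16 was not called without m862 (0.098), m863 (0.101) or m865 (0.0871).

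Of the 5 lysyl oxidases, 4 were called higher. Lox was at 67.9, 132, 129, 164 and 12.5 in HRS legs and at 10.7, 13.5, 14.5, 17.0 and 20.7 in contralateral PBS legs (2.30 ± 0.57, adjusted p = 0.00343, limma). Loxl1, which acts on elastin, was at 122, 205, 161, 188 and 37.6 against 22.6, 42.5, 39.7, 39.1 and 61.0 (1.65 ± 0.39, adjusted p = 0.00234). Loxl2 was at 112, 190, 156, 205 and 26.6 against 17.1, 32.5, 29.04, 23.2 and 35.6 (2.06 ± 0.44, adjusted p = 0.00138). In all 3 genes the first 4 HRS legs were above every PBS leg, and the HRS leg of m866 was in the PBS range and under its own PBS leg. Without m866, the log2 fold changes were 3.05 ± 0.39 for Lox, 2.23 ± 0.23 for Loxl1 and 2.68 ± 0.26 for Loxl2.

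Loxl3 differed from those 3 in m866, at 19.1, 33.6, 37.3, 33.2 and 12.2 in HRS legs and 5.41, 8.64, 8.55, 5.97 and 8.56 in contralateral PBS legs, so that all HRS legs were above all PBS legs (1.71 ± 0.26, adjusted p = 9.53e-05, limma). It shares 535 exonic bases with Htra2 on the opposite strand. Loxl4 was low, at 1.21, 1.99, 2.05, 1.21 and 0.997 in HRS legs and 0.513, 0.890, 0.462, 0.823 and 0.565 in contralateral PBS legs. Its HRS legs did not overlap these PBS legs, but the difference of 0.77 ± 0.19 (adjusted p = 0.00294, limma) was under the fold threshold.

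In the PBS-only legs, Lox lay between 5.62 and 15.7, Loxl1 between 25.7 and 43.97, Loxl2 between 22.0 and 35.0, Loxl3 between 5.29 and 7.60 and Loxl4 between 0.485 and 0.881. In HRS-MBP libraries m860 and m861, Loxl1 was at 149 and 84.8 and Loxl2 at 123 and 55.7, above every PBS-only leg.

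Within mice, the HRS leg was higher than the PBS leg in 5 of 5 mice for 15 of the 42 tested members, against 26.3% of all tested genes, and lower in 5 of 5 for 4 members, against 8.97%. With 5 pairs, an exact two-sided sign-flip test cannot go below 0.0625. The median log2 leg difference of the members was 1.76, 1.86, 2.18 and 2.24 in mice m862 to m865 and -0.17 in m866. Between 30 and 31 of the 42 members were more than 1 log2 unit higher in the HRS leg in each of the first 4 mice, where 20.02%, 19.4%, 25.4% and 21.2% of all tested genes were in m862 to m865. In m866, 2 members (Mmp12 and Mmp25) were, against 5.08% of all tested genes. In 22 members the HRS leg was higher in the first 4 mice and lower in m866, against 16.3% of all tested genes.

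Of the 27 members called higher, 11 were higher in the HRS leg of m866 than in its own PBS leg, against 73.9% of all 2781 genes called higher. Those above all 5 contralateral PBS legs numbered 8 of 27, namely Mmp8, Mmp9, Mmp12, Mmp25, Mmp27, Timp1, Adamts4 and Loxl3, against 66.5% of the called genes. Of these 8, Mmp8, Mmp25 and Mmp27 passed the filter only through HRS or HRS-MBP libraries. The other 19 did not lie above all contralateral PBS legs in m866, among them Mmp2, Mmp14, Lox, Loxl1, Loxl2, Adamts2 and Adamts14.

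**Figure D4:**
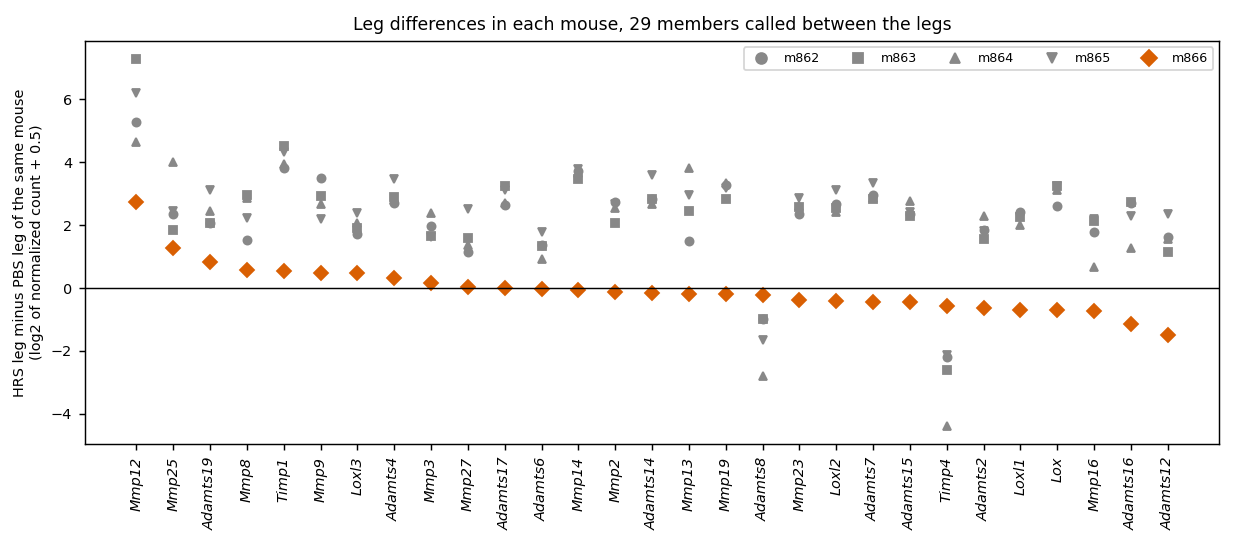
Log2 difference between the HRS leg and the PBS leg of the same mouse for the 29 members called between the legs, ordered by the difference in m866 (orange diamonds), with the other 4 mice in grey. In m866 the differences run from 2.73 for Mmp12 to -1.50 for Adamts12, while the other 4 mice lie at 0.67 or higher for all 27 members called higher.

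Marker genes of other cell types moved with these values. The summed level of 8 macrophage markers was 2779 to 6073 in 4 HRS legs, 1217 in that of m866 and 122 to 364 in the 9 PBS legs. The summed level of 8 fibroblast markers was 14330.5 to 24697 in 4 HRS legs and 2628 in that of m866, inside the PBS range of 1178 to 2887. The 8 neutrophil markers summed to 41.3 to 141 in 4 HRS legs, 10.4 in m866 and 0.566 to 3.56 in PBS legs, with Ly6g at 0 in all PBS legs and Mpo at 0 in all PBS-only legs. In m866 the macrophage and neutrophil markers were thus above every PBS leg while the fibroblast markers were not, and their part in the results for each protease was not tested. In bulk tissue, more cells of a type and more RNA per cell cannot be told apart.

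Markers of the other tissues a hamstring sample could hold were examined in the same way. The 8 myofibre markers were present in every library, at 40951 to 100307 in 4 HRS legs, under every PBS leg, at 165546 in the HRS leg of m866 and at 118765 to 192788 in PBS legs. The mitochondrial share of the normalized counts moved with them, at 3.41% to 6.29% in those 4 HRS legs, 11.1% in m866, 9.69% to 13.1% in PBS legs and 5.94% and 6.98% in m860 and m861. The 6 regenerating-myofibre markers summed to 510 to 1597 in 4 HRS legs, 72.7 in m866, 82.2 to 246 in PBS legs, 736 in m860 and 116 in m861. The 6 T-cell markers summed to 14.1 to 106 in HRS legs, lowest in m866, and 0.930 to 2.91 in PBS legs, and the 5 B and plasma cell markers to 18.0 to 50.9 and 1.02 to 6.05. In m860 and m861 these were 84.0 and 119.6 for T cells and 90.7 and 683 for B and plasma cells. The 6 endothelial markers overlapped between HRS legs (339 to 401) and PBS legs (318 to 391.6), as did the 6 mast cell markers (13.0 to 27.9 and 10.5 to 38.6). The 5 tenocyte markers summed to 25.6 to 86.7 in HRS legs and 9.02 to 67.8 in PBS legs, and the 4 of 6 cartilage and bone markers in the table to 0.0623 to 6.25 and 0.0568 to 1.46. The 5 osteoclast markers summed to 66.3 to 111 in 4 HRS legs, 22.5 in that of m866, 83.2 in the PBS leg of m866 and 14.4 to 29.5 in the other PBS legs. The 5 adipocyte markers summed to 136 to 449 in 4 HRS legs, 669 in that of m866, 4529 in the PBS leg of m866 and 398 to 833 in the other PBS legs, so that the PBS leg of m866 also stood apart from the other PBS legs. Their part in the results was not tested.

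Against PBS-only legs, a comparison that shares its HRS libraries with the contralateral one, 29 of 42 members were called higher and 1 (Timp4) lower, where 18.9% and 5.87% of all tested genes were. All 7 members that passed the filter only through HRS or HRS-MBP libraries were among the 29. Their calls follow in part from that filter. Timp1 (3.99 ± 0.53), Mmp12 (4.89 ± 0.74), Mmp14 (3.04 ± 0.50) and Mmp19 (2.96 ± 0.45) had the largest rises by limma. Mmp11 (1.05 ± 0.25), Adamts10 (1.03 ± 0.21) and Timp2 (1.11 ± 0.26) were called against PBS-only legs but not against contralateral PBS legs, all close to the fold threshold, and Adamts6 and Adamts8 were not called here (0.98 ± 0.31 and -0.90 ± 0.43). Without mouse m866, 31 members were called higher and 1 lower, where 3580 and 1532 of 16414 tested genes were. The members then called in addition were Adamts5 and Adamts6, and the median of the members moved from 1.67 to 2.12. When m867 and m868 each entered as the average of both legs, 25 members were called higher and 0 lower, where 17.7% and 5.53% of all tested genes were.

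The PBS legs of HRS mice were compared with PBS-only legs to ask whether these genes differed in the PBS leg of mice given HRS in the other leg. No member was called by limma, where 0.00609% of all tested genes were, and limma-voom called 0 members too. At an unadjusted p under 0.05 there was 1 of 42 members, where 5.5% of all tested genes were. This was Mmp3, at 3.62 to 8.72 in contralateral PBS legs against 1.42 to 5.02 in PBS-only legs (0.97 ± 0.38, adjusted p = 0.84). The median difference of the 42 members was 0.083, against 0.066 for all genes. With 2 PBS-only mice, differences of the size of Timp4's 0.74 ± 0.51 could not be separated from the spread.

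HRS-MBP was compared with PBS-only legs, and 20 of 42 members were called higher and 1 (Timp4) lower, where 20.7% and 10.2% of all tested genes were. Among those called higher, Mmp25, Mmp27 and Adamts17 had passed the filter only through HRS or HRS-MBP libraries. Their calls follow in part from that filter. The largest rises by limma were those of Mmp19 (3.46 ± 0.58), Timp1 (3.39 ± 0.69), Mmp12 (3.36 ± 0.95), Mmp9 (3.25 ± 0.50), Mmp14 (3.12 ± 0.64) and Mmp25 (2.98 ± 0.41). The rise of Mmp12 rested mainly on m860, as its log2 difference was 1.85 with m861 alone. Loxl4 was called here but not in HRS legs, at 3.16 and 2.45 in m860 and m861 against 0.485 to 0.881 in PBS-only legs (1.53 ± 0.26, adjusted p = 0.000215). When m867 and m868 each entered as the average of both legs, 14 members were called higher and 0 lower, where 19.2% and 9.56% of all tested genes were. In that setting Mmp2, Loxl2, Adamts2, Adamts14, Adamts15, Adamts17 and Timp4 lost their calls. This comparison shares its PBS-only libraries with that of HRS against PBS-only legs.

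The 2 HRS-MBP libraries differed from each other in many of these genes. Of the 29 members called higher in HRS against PBS-only legs, 26 were lower in m861 than in m860, against 51.2% of the 3100 genes called higher in that comparison. Mmp12 was at 57.8 in m860 and 6.65 in m861, Lox at 77.8 and 19.2, Timp1 at 14.4 and 4.91 and Adamts4 at 7.58 and 1.29. Mmp9 was at 52.8 and 45.3, Mmp25 at 5.19 and 4.83, Mmp19 at 51.8 and 65.8 and Loxl3 at 27.1 and 22.7. The fibroblast markers summed to 12865 in m860 and 5685 in m861, and the macrophage markers to 5376 and 4974, and their part in the result was not tested. Without m860, 10 members were called higher and 2 lower, where 18.4% and 7.85% of all tested genes were. Without m861, 22 were called higher and 0 lower, where 19.6% and 8.38% of all tested genes were. In both, the lone library was assumed to vary like the other groups.

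Between HRS-MBP and HRS, no member was called by limma, where 0.463% of all tested genes were, and limma-voom called 0. At an unadjusted p under 0.05 there were 5 of 42 members, where 14.4% of all tested genes were, namely Adamts4 (-1.83 ± 0.59), Adamts19 (-1.31 ± 0.55), Adamts1 (-0.60 ± 0.24), Mmp15 (-0.61 ± 0.15) and Loxl4 (0.76 ± 0.25), with adjusted p between 0.0865 and 0.302. Without mouse m866, Adamts4 (-2.28), Adamts16 (-2.01) and Adamts19 (-1.76) were called lower in HRS-MBP, where 0.609% of all genes were, and without m864, Mmp25 was called higher (1.06). The doses differed (2 to 3 against 3 to 5 mg/mL), so the values are set side by side.

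The partner genes of these enzymes, 59 genes of the plasminogen system, protease control, collagen modification and lysosomal or granule proteases, were taken from lists of the same pathways. In HRS against contralateral PBS legs, 28 of the 54 tested were called higher and 0 lower, where 16.9% and 6.27% of all tested genes were, with a median log2 fold change of 1.03 against 0.077 for all genes. The same shares stand behind the counts of each list. Of 5 plasminogen-system genes tested, 3 were called higher, with Plaur, the urokinase receptor, rising most (2.69 ± 0.28, adjusted p = 4.99e-06) and Serpine2, an inhibitor of plasminogen activators and thrombin, at -0.998 ± 0.21 (adjusted p = 0.00144) just short of the fold threshold. Of 24 protease-control genes, 13 were called higher, led by the membrane protease Adam12 (3.41 ± 0.74), and Bsg, the inducer of MMPs also called EMMPRIN, had the lowest value (-0.89 ± 0.20, not called). The MMP inhibitor Reck was not called (0.14 ± 0.22), and Bmp1, the procollagen C-proteinase, rose by 1.80 ± 0.33.

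Of 19 genes for collagen modification, 9 were called higher, led by P4ha3, a prolyl 4-hydroxylase subunit (3.36 ± 0.75), and the lowest value was that of P3h2 (0.11 ± 0.16). Of 6 cathepsins and granule proteases tested, 3 were called higher. Ctss, the cathepsin of antigen-presenting cells, had the largest change of all partners (4.75 ± 0.48, adjusted p = 3.49e-06, limma), while Mcpt4 of mast cells was at -0.23 ± 0.37. In the HRS leg of m866, Ctss was at 99.1 and Plaur at 5.36, above every PBS leg, and Adam12 at 2.96 and P4ha3 at 0.343 were within the PBS range. Between HRS-MBP and HRS, 0 of the 54 were called by limma.

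The 6 members not tested had a mean under 0.5. Mmp10, stromelysin-2 in the chromosome 9 cluster, was at 0 in all 9 PBS legs and at 0.0895, 0.0549, 1.49, 0.235 and 0 in HRS legs. Against a floor of 3 reads over the whole group, it was at least 21.8-fold higher in HRS than in contralateral PBS legs (at least 9.85-fold than in PBS-only legs). Without m864, which held most of the reads, the level in HRS legs was 0.0979, at least 6.03-fold higher than in contralateral PBS legs. The floor of the PBS-only legs was 0.0359, and the fold against them without m864 was not computed, so that the 9.85 rests largely on m864. Adamts13, the protease of von Willebrand factor, was at 0 in all 9 PBS legs and at most 0.0536 in HRS legs, with 0, 4, 3, 3 and 1 reads in m862 to m866. Its level over the HRS legs, from 11 reads, was 2.22 times the floor of the contralateral PBS legs. The counting error of those 11 reads is not included, so this is no lower bound on the fold. Against PBS-only legs, with their higher floor, the level of Adamts13 was at the floor and gives no fold. Adamts18 was at 0.312 to 1.03 in HRS legs and 0 to 0.727 in PBS legs, and Mmp7, Mmp21 and Mmp24 stayed at or under 0.586 in every library. Mmp1a, Mmp1b and Mmp20 were not analysed here.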

How the data were processed

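The authors deposited a table of normalized counts per gene for the 16 mouse libraries, taken as a linear signal of at least 0. Libraries were poly(A)-selected with a directional kit. The submitters' processing notes name STAR 2.7.8a, limma and the builds mm39 and GRCm39, whereas the gene positions of the table match GRCm38 (GENCODE M21) for 99.0% of 25652 genes of the same symbol, and for all 48 members. Coordinates printed are those of GRCm38, with ends 1 base under the end given in the table. The counting tool, its use of strand and the scaling are not given in the sources used here. Totals were 726797 to 1252360 per library. Between 74.7% and 76.8% of low values (20 steps or fewer) were whole multiples of 1 step within 0.02 of a step, which was too few to recover whole reads, and count tests were left out. The step gave the implied depth and the floor of 3 reads. No column of values per sample was left unused.

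Tests were run with limma 3.58.1 in R 4.3.3 (eBayes with its trend option) on log2(normalized count + 0.5), in 1 fit of the 4 groups to all 16 libraries, for the 16414 genes with a mean of at least 0.5. Fold changes are on that scale and understate low genes. P values were adjusted by Benjamini-Hochberg over all tested genes, with a call requiring an adjusted p under 0.05 and a log2 fold change beyond 1 in size. Each p measures the spread between these libraries. The scripts were tested on simulated data.

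The members and all gene lists were chosen with earlier results of these data known. Values in each leg of m862 to m866 are given, with ranges or single values elsewhere, for all Timp and lysyl oxidase genes, for members called between HRS and contralateral PBS legs whose leg difference had 1 sign in 5 of 5 mice (up to 12 rises and 12 falls), and for members called only in the HRS-MBP comparisons. Partner genes are named as the largest rise and fall of each list. Other members named, those in the plot of 12 members, and Reck, Bmp1 and the values of partners in m866 were chosen after their values were seen. The number of a mouse marks the same animal in HRS and contralateral PBS legs, and so pairs them. After subtraction of the group means, the correlation across genes between both legs of a mouse was 0.119, 0.163, 0.0972, -0.0256 and -0.366 in m862 to m866. As alternatives, each mouse was left out, mouse was entered as a block, and other pseudocounts, filters, scalings, variance models and subsets of libraries were tried. Levels between genes were compared per kb of the union of exons. Promoters came from RefSeq (GRCm38.p6), which had entries for 30 of the 48 members. Python 3.11.15 with pandas 2.3.3, numpy 2.4.6 and matplotlib 3.10.9 was used for the remaining steps. Other assays of the study were not analysed here.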

Additional observations from a re-analysis of the deposited data

Results flagged for a closer look

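A library was marked where its gap to the nearest other library of its group, on the log2(normalized count + 0.5) scale, exceeded Dixon's critical value for the range of 4 or 5 libraries. Of 126 groups of values examined (42 members in 3 groups), 15 were marked, and chance marks about 1 in 20.

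In the HRS group, 10 of the marks were low values of mouse m866. They were Mmp2 (101 normalized counts), Mmp14 (43.8), Mmp23 (3.37), Adamts7 (2.24), Adamts12 (7.67), Adamts14 (4.14), Adamts15 (8.01), Adamts16 (0.405), Adamts17 (0.218) and Adamts19 (0.530). None of the members that stayed above every contralateral PBS leg in m866, such as Mmp9 and Timp1, was marked. The other HRS mark was a low Mmp15 in m864, at 32.1.

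Among PBS legs, Mmp11 was high in the contralateral PBS leg of m865 (5.82) and low in the left PBS-only leg of m868 (2.42), where Mmp13 was high (0.261). Adamts2 was low in the left PBS-only leg of m867 (23.4).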

How the results depend on the processing

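The number of called members kept within 1.5 times its value under all alternatives for HRS against contralateral PBS legs (22 to 34, from 29) and against PBS-only legs (23 to 34, from 30), and was 0 throughout for contralateral PBS against PBS-only legs. Of the 29 members called in HRS against contralateral PBS, 22 were called in every alternative that tested them, as were 20 of 30 against PBS-only legs and 8 of 21 for HRS-MBP against PBS-only legs (Loxl3, Mmp3, Mmp9, Mmp14, Mmp19, Mmp25, Timp1 and Timp2). No called member changed direction. With the filter at a mean of 2, 22 members were called in HRS against contralateral PBS legs, as fewer members were tested.

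Leaving out each mouse in turn, the members called ranged from 26 to 32 for HRS against contralateral PBS, 23 to 32 against PBS-only, 12 to 22 for HRS-MBP against PBS-only (12 without m860) and 0 to 3 for HRS-MBP against HRS (3 without m866, 1 without m864). The partner genes called ranged from 26 to 33. For HRS against PBS-only legs, Mmp13 lost its call without m867 and with the PBS-only legs averaged per mouse, and Mmp11, Mmp16, Mmp27, Adamts10, Adamts12, Adamts16, Timp2 and Timp4 lost theirs without at least 1 mouse. The cause was not tested.

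With mouse as a fixed replicate block in the 10 libraries of the 5 mice, 26 members were called (24 higher and 2 lower), and 28 partner genes. With mouse as a random block (consensus correlation -0.154), 29 members were called for HRS against contralateral PBS, 30 against PBS-only, 22 for HRS-MBP against PBS-only, 0 in the other comparisons, and 28 partner genes. The block changed no other call between HRS and contralateral PBS legs than those of Adamts12, Adamts16 and Mmp16.

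Scaling moved the median of all genes between HRS and contralateral PBS legs from 0.077 to -0.16 with quantile normalization, 0.454 with equal library totals and 0.483 with limma-voom. The split of all called genes moved from 2781 higher and 1029 lower to 2093 and 1632, 4179 and 324, and 4312 and 251, and that of the members from 27 and 2 to 23 and 3, 32 and 1, and 33 and 1. The shallowest PBS-only leg (8.60, in units of 1e6 reads) limits what can be seen for members near the floor, and 2 PBS-only mice and 2 HRS-MBP mice limit those comparisons.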
